A study of Mus musculus with 10 samples.

Results

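The genes of oxidative phosphorylation were followed in tumours grown from 4T1 cells, a transplantable line of BALB/c mammary carcinoma. The set holds 103 of the 18047 genes listed, 13 of them encoded in mitochondrial DNA and 90 in the nucleus. Members were chosen by symbol alone, as protein-coding genes of the GENCODE M21 annotation named mt-, Nduf followed by a, b, c, s or v, Sdha to Sdhd, Uqcr, Cox4 to Cox8 or Atp5. The rule uses no measured value. The annotation holds 107 such genes, and the other 4, Cox6b2, Cox7b2, Cox8c and a second Atp5o entry, are not analysed here. By symbol, the nuclear-encoded members fall into 46 genes of complex I, of which 38 are subunits and 8 are Ndufaf assembly factors, 4 of complex II, 8 of complex III, 15 of complex IV and 17 of complex V. All 103 passed the filter on low values, a mean of at least 10 normalized counts.

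Oxidative phosphorylation makes ATP in mitochondria. Complexes I and II take electrons from NADH and succinate, complex III passes them to cytochrome c, complex IV hands them to oxygen, and the proton gradient built on the way drives ATP synthase, complex V. Complexes I, III, IV and V are encoded in part by mitochondrial DNA, while their remaining subunits and all of complex II come from nuclear genes.

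The 5 KO libraries came from tumours of 4T1 cells carrying a gene knockout and the 5 WT libraries from tumours of wild-type 4T1 cells. All tumours had grown for 3 weeks in BALB/c mice and were taken as frozen sections, so the RNA is that of carcinoma cells together with host cells, and fewer cells of a type and less RNA per cell cannot be told apart. The labels used here name no animal and do not say whether the KO line was a clone, and a p-value therefore reflects library-to-library spread, which may be technical. Summed over the listed genes, the libraries held 8609756 to 16066866 reads in KO and 11772430 to 19934428 in WT.

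Some libraries stood apart. A prefix, RESUB, which the labels do not explain, stands in the library names of KO5, WT1, WT2, WT3 and WT4, and the number 170 is in the names of both WT2 and WT5. If that number marks 1 tumour, WT holds 4 independent tumours and not 5; with WT2 and WT5 averaged, limma called 0 members. The 10 carcinoma markers were detected in every library, with summed normalized counts of 13938 to 20066 in KO and 19379 to 35835 in WT. All 10 fitted differences were below 0 (median log2 difference -0.79). Of the 10, 7 were at an unadjusted limma p under 0.05, against 3.67% of all genes lower in KO, and 0 after adjustment. The 12 keratinocyte and hair follicle markers summed to 228 to 570.2 normalized counts in KO and 607 to 14047 in WT, with the highest sums in WT3, WT5 and WT2. All 12 fitted differences were below 0 (median log2 difference -3.42). All 12 were at an unadjusted limma p under 0.05, against 3.67% of all genes lower in KO. After adjustment limma and edgeR called 0 of the 12. DESeq2 called 7, against 0.529% of all genes lower in KO.

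The 13 mitochondrial mRNAs were listed at levels of 2 kinds, and this held in KO and WT tumours alike. For 7 of them, mt-Nd1, mt-Nd2, mt-Co1, mt-Nd4, mt-Nd5, mt-Nd6 and mt-Cytb, single libraries ran from 6969.8 to 269902 normalized counts. For the other 6, mt-Co2, mt-Atp8, mt-Atp6, mt-Co3, mt-Nd3 and mt-Nd4l, they ran from 54.3 to 495. Per kb of transcript, the lowest mean of the 7 was 29.5 times the highest mean of the 6. The 6 are neighbours on the mitochondrial map, from mt-Co2, which starts at position 7013, to mt-Nd4l, which ends at 10173 (GRCm38, plus strand). mt-Co1 before them and mt-Nd4 after them belong to the abundant 7.

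The annotation places near-identical copies of most of this stretch on nuclear chromosome 1. Every 50-base window of each mitochondrial mRNA was looked up in the transcripts of other annotated genes. In mt-Co2, mt-Atp6, mt-Co3, mt-Nd3 and mt-Nd4l, 100%, 99.5%, 99.9%, 98.0% and 98.8% of windows were found in another gene. The partners are the unprocessed pseudogenes Gm28661, Gm10925, Gm28437, Gm28438 and Gm10222, which lie together at chr1:24612407-24615565 on the minus strand. mt-Atp8 shared 0% of its windows with an annotated transcript, but it lies between mt-Co2 and mt-Atp6, and the copies of these neighbours leave a gap of 233 bases, against the 204 bases of mt-Atp8. The bases of that gap were not read here.

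The stretches below show how close the copies are. They were taken from GENCODE M21 transcripts (GRCm38), run 5′ to 3′ along each gene, and capitals mark a mismatch between a gene and its copy. mt-Co2 spans chrM:7323-7382 and its copy Gm28661 chr1:24615196-24615255, and the pair is shown because all 681 aligned bases were identical.
mt-Co2: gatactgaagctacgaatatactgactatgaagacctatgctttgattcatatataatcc
Gm28661: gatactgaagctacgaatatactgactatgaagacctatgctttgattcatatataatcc
mt-Nd3 spans chrM:9459-9518 and its copy Gm28438 chr1:24613060-24613119, and the pair is shown because it holds the single mismatch found in the 5 pairs.
mt-Nd3: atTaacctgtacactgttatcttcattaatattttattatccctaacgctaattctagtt
Gm28438: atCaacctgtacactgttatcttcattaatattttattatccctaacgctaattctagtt
Over their aligned lengths mt-Atp6 with Gm10925 (678 bases), mt-Co3 with Gm28437 (783 bases) and mt-Nd4l with Gm10222 (294 bases) had 0 mismatches.

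The copies were listed at levels like those of the 6 low mitochondrial mRNAs. mt-Co2 encodes subunit 2 of cytochrome c oxidase. mt-Co2 had 178, 216, 171.5, 291 and 203 normalized counts in KO1 to KO5, against 159.6, 288, 209, 175 and 330.1 in WT1 to WT5. Its copy Gm28661 had 238, 281, 199.7, 358 and 213 normalized counts in KO1 to KO5, against 167.9, 346, 214, 185 and 382 in WT1 to WT5. Both rows were lowest in WT1 and highest in WT5, the groups overlapped in both, and the correlation of their log2 levels over 10 libraries, which share depth and scaling, was 0.95. The same correlation was 0.94 for mt-Atp6, 0.95 for mt-Co3, 0.902 for mt-Nd3 and 0.731 for mt-Nd4l with their copies. The share of windows found in another gene ran from 98.0% (mt-Nd3) to 100% (mt-Co2) in the low mRNAs other than mt-Atp8. In the abundant mRNAs it was at most 62.2%, in mt-Nd4, where all shared windows were with Gm28439 on the same part of chromosome 1. The abundant mt-Co1 shared 51.1% with 3 pseudogenes. mt-Atp8 shared 0% with an annotated transcript and was low, so this share did not sort all 13 mRNAs into the 2 kinds. How the authors placed reads that match several sites is not given in the sources used here, and its part in the low values was not tested. The values of these 6 mRNAs are therefore uncertain as levels.

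**Figure D1:**
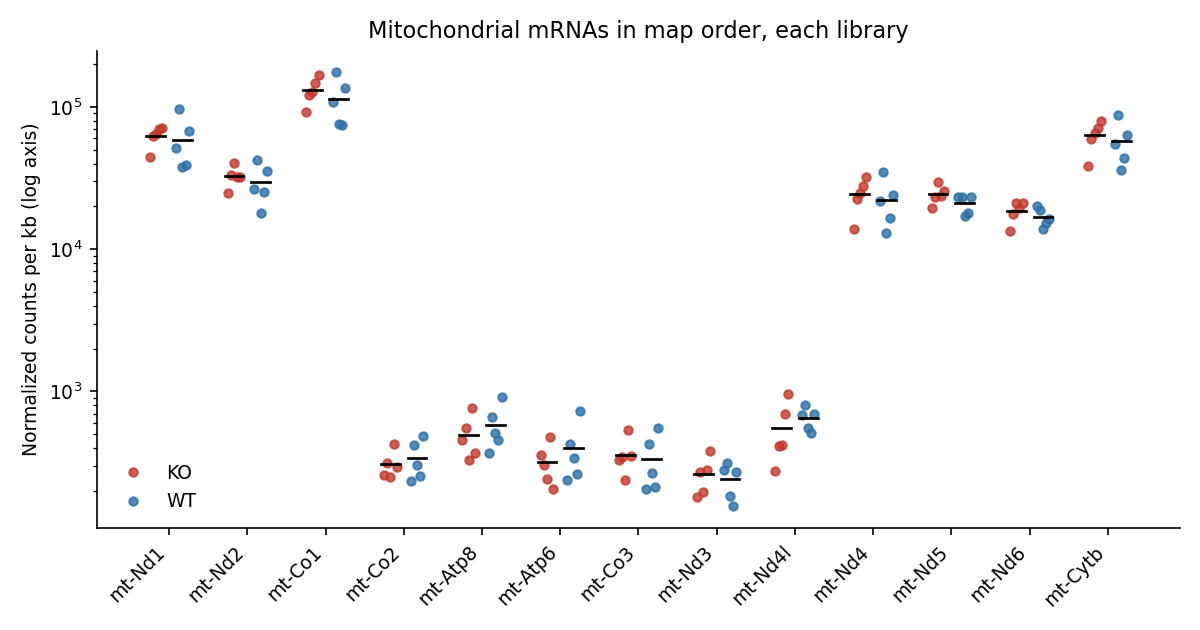
Normalized counts per kb of transcript (log axis) of the 13 mitochondrial mRNAs in map order, KO left and WT right of each position. Points are single libraries and black bars are group means (n = 5 each). The 6 mRNAs from mt-Co2 to mt-Nd4l reach at most 964 per kb in any library, and the other 7 are at 13016 or above.

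None of the 7 abundant mitochondrial mRNAs was called between KO and WT. A call means a limma p below 0.05 after Benjamini-Hochberg adjustment over all 17975 tested genes. mt-Co1, which encodes the catalytic subunit of complex IV, was the most abundant member. mt-Co1 had 141189.6, 188814, 196538, 226748 and 260256 normalized counts in KO1 to KO5, against 167678, 269902, 116480.4, 114829 and 209475 in WT1 to WT5. The groups overlapped, with the highest value in WT2 and the lowest in WT4, and the log2 difference was 0.26 ± 0.40 (SE) with a 95% interval of -0.61 to 1.12 (limma adjusted p = 0.963).

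mt-Cytb encodes cytochrome b, the mitochondrial subunit of complex III. mt-Cytb had 44253, 68349, 75408, 81081 and 91529 normalized counts in KO1 to KO5, against 63271, 100865, 40982, 49834 and 72396 in WT1 to WT5. WT2 was again highest and WT3 lowest (log2 difference 0.17 ± 0.34 (SE)). The complex I subunits mt-Nd1, mt-Nd2, mt-Nd4 and mt-Nd5 had log2 differences of 0.18, 0.18, 0.16 and 0.21. mt-Nd6, the mRNA read from the other strand of the mitochondrial map, had 9653 ± 1673 normalized counts in KO tumours and 8774 ± 1305 in WT tumours (n = 5 each, SD), a log2 difference of 0.13 ± 0.20 (SE). The 7 fitted differences were all above 0, from 0.13 to 0.26, but most of these mRNAs are cut from shared precursor transcripts and the 7 are not separate observations. Without WT3 1 of them, mt-Nd4, was just below 0, and within the libraries without the RESUB prefix, where WT5 is the sole WT library, 5 of the 7 were. The smallest adjusted p among them was 0.951.

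Of the 6 low mRNAs, mt-Nd3 and mt-Co3 had fitted differences above 0 (0.12 and 0.17) and mt-Co2, mt-Atp8, mt-Atp6 and mt-Nd4l below 0 (-0.10, -0.23, -0.27 and -0.34). None was called. mt-Atp6, which encodes the proton channel subunit of complex V, reached 495 normalized counts in WT5, against 163.7 to 289.6 in the other WT libraries and 139.7 to 328 in KO. The library order of these mRNAs was not that of the abundant 7: the median deviation of the 6 from their 10-library means, in log2, was 0.68 in WT5 and 0.0054 in KO5, where the 7 had 0.13 and 0.30.

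As a share of the reads of a library on the listed genes, the 13 mitochondrial mRNAs took 2.63, 3.42, 3.54, 3.58 and 3.97 in KO1 to KO5, against 3.14, 4.31, 2.36, 2.03 and 3.59 in WT1 to WT5, in percent. The mean was 3.43% ± 0.492 in KO tumours and 3.08% ± 0.924 in WT tumours (n = 5 each, SD). All 5 KO libraries lay within the range of the WT libraries, which held both the lowest share, in WT4, and the highest, in WT2. Over the same libraries 6 nuclear and structured RNAs summed to 562316 to 790023 normalized counts in KO and 345509.9 to 700656 in WT, and the part of such RNAs in the shares was not tested.

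The reads on mitochondrial mRNAs outnumbered those on nuclear-encoded members in every library. The ratio of summed reads was 6.98, 6.69, 9.93, 5.99 and 6.01 in KO1 to KO5, against 5.98, 5.48, 5.73, 4.53 and 8.53 in WT1 to WT5. KO3 and WT5 stood highest and WT4 lowest, and the groups overlapped. This ratio and the mitochondrial share above include the low mRNAs from mt-Co2 to mt-Nd4l, whose values are uncertain as levels. They also include mt-Co1 and mt-Nd4, which share 51.1% and 62.2% of their windows with pseudogenes, so both depend on how such reads were placed. The nuclear-encoded members themselves took 0.357% to 0.66% of the reads on the listed genes in KO and 0.412% to 0.787% in WT.

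**Figure D2:**
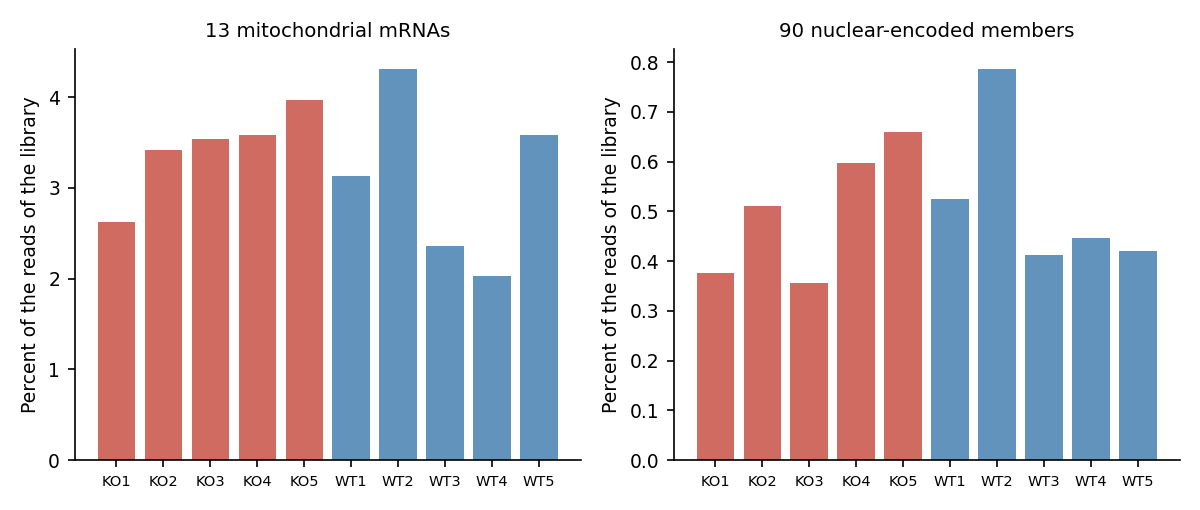
Percent of the reads of each library on the 13 mitochondrial mRNAs (left) and on the 90 nuclear-encoded members (right), KO libraries in red and WT libraries in blue. The reads of a library are those on the listed genes. WT2 has the highest share in both panels, and WT4 the lowest on the left.

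No nuclear-encoded member was called between KO and WT. limma called 0 of the 103 members, nuclear and mitochondrial together, where it called 0.00556% of all genes tested. At an unadjusted limma p under 0.05 there were 0 members, against 6.49% of all genes (2.82% higher and 3.67% lower in KO). KO and WT libraries did not overlap in 0 members, against 1.42% of all genes (0.684% higher and 0.734% lower in KO). edgeR called 0 members (0.00556% of all genes) and DESeq2 0 (0.673% of all genes, 0.145% higher and 0.529% lower in KO). In both tools 2 members, Cox6a2 and Cox8b, were lower in KO at an unadjusted p under 0.05, against 4.71% of all genes in edgeR and 4.96% in DESeq2, and 2 of 103 is not above those shares. The median log2 difference was 0.023 over the 90 nuclear-encoded members, 0.16 over the 13 mitochondrial mRNAs and -0.0073 over all genes tested. These data do not show that the levels are alike: the median half-width of a member's 95% interval was 0.651 log2 units, and the interval lay wholly between -1 and 1 for 86 of the 103 members.

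**Figure D3:**
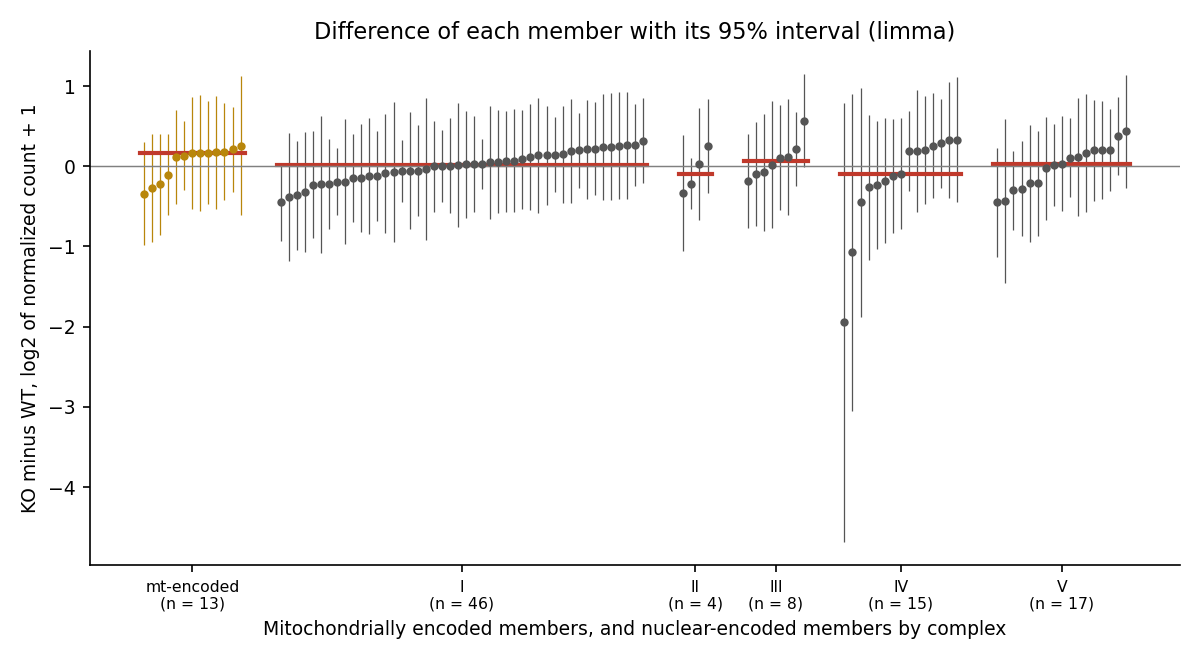
KO minus WT difference of each of the 103 members (log2 of normalized count + 1) with its 95% interval from limma, the mitochondrially encoded members first and then the nuclear-encoded members of complexes I to V. Red lines are medians. All intervals include 0, and the widest belong to Cox6a2 and Cox8b in complex IV.

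Complex I, the NADH dehydrogenase, is the largest group. In it 27 of 46 fitted differences were above 0 and 19 below, with a median log2 difference of 0.019. Ndufv1, which carries the NADH binding site, had the smallest p of the complex. Ndufv1 had 355, 363, 401, 408 and 579 normalized counts in KO1 to KO5, against 549, 824, 409.8, 715 and 428 in WT1 to WT5. KO5 stood apart from the other KO libraries at 579, and the groups overlapped (log2 difference -0.44 ± 0.23 (SE), 95% interval -0.93 to 0.045, limma adjusted p = 0.79). Ndufv3, Ndufa9 and Ndufa4 followed with log2 differences of 0.32, 0.27 and -0.36. Ndufa4 is grouped here by its symbol, although its protein is now regarded as a subunit of complex IV. Ndufa7 had the highest mean of the complex per kb of its longest coding transcript, 1493 normalized counts per kb, and a log2 difference of 0.22.

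The 8 Ndufaf genes encode factors that assemble complex I and are not part of the finished enzyme. Of their fitted differences 6 were above 0 and 2 below, with a median of 0.022 and a range from -0.15 to 0.20. Ndufaf1, with the smallest p, had 123 ± 30.1 normalized counts in KO tumours and 106 ± 19.0 in WT tumours (n = 5 each, SD; log2 difference 0.20 ± 0.22 (SE)). Ndufaf6, Ndufaf3 and Ndufaf4 had log2 differences of -0.15, 0.15 and 0.087. Ndufaf2 shares 65.7% of its exonic bases with a long noncoding RNA of the opposite strand, and since the use of strand in counting is not stated, reads of the pair are not separable.

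Complex II, succinate dehydrogenase, also works in the tricarboxylic acid cycle. Sdha had 1152, 1052, 903, 1194 and 1031 normalized counts in KO1 to KO5, against 1218, 1306, 1048, 1365 and 1257 in WT1 to WT5. Sdha encodes its flavoprotein, and its KO and WT libraries overlapped (log2 difference -0.22 ± 0.15 (SE), 95% interval -0.54 to 0.10, limma adjusted p = 0.88). It varied less between libraries than the other 3 members. Sdhb, the iron-sulfur subunit, had 1057 ± 362 normalized counts in KO tumours and 1109 ± 657 in WT tumours (n = 5 each, SD), with WT2 at 2258. The membrane anchors Sdhc and Sdhd had log2 differences of -0.34 and 0.25. Over the 4 genes the median was -0.095, with 2 above 0 and 2 below.

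In complex III, which oxidises ubiquinol, 5 of 8 fitted differences were above 0 and 3 below, with a median log2 difference of 0.065. Uqcrh, the hinge protein next to cytochrome c1, had the smallest p of all 103 members. Uqcrh had 604, 1040.1, 648, 1158 and 1153 normalized counts in KO1 to KO5, against 682, 985, 430.2, 445 and 587 in WT1 to WT5. Each KO library except KO1 and KO3 was above every WT library, and those 2 were within the WT range. The log2 difference was 0.57 ± 0.27 (SE) with a 95% interval of -0.012 to 1.15 (unadjusted p = 0.054, limma adjusted p = 0.777). The core proteins Uqcrc1 and Uqcrc2 had log2 differences of -0.19 and 0.22. Uqcrb, a small subunit, and Uqcr10, the subunit of the complex with the highest mean per kb (1527 normalized counts per kb), had 0.11 and 0.11.

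In complex IV, cytochrome c oxidase, 7 of 15 fitted differences were above 0 and 8 below, with a median log2 difference of -0.093. Cox8a had the highest mean per kb, 2349 normalized counts per kb. Cox8a had 677, 994, 913, 1603 and 2069 normalized counts in KO1 to KO5, against 1335, 2202, 992, 1355 and 778 in WT1 to WT5. The groups overlapped, with WT2 and KO5 highest and KO1 lowest (log2 difference -0.12 ± 0.33 (SE)). Cox6b1 and Cox7c had log2 differences of 0.29 and 0.32. Cox7a2l, which encodes a supercomplex assembly factor named for its likeness to Cox7a2, had 0.19.

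Several subunits of complex IV exist as a ubiquitous form and a form of heart and skeletal muscle, and the muscle forms were highest in the library richest in muscle markers. Cox6a2 is the muscle form of subunit 6a. Cox6a2 had 6.99, 85.3, 1.41, 57.2 and 32.3 normalized counts in KO1 to KO5, against 125, 1108, 3.88, 40.5 and 95.3 in WT1 to WT5. WT2 was far above all other libraries, and the groups overlapped (log2 difference -1.95 ± 1.26 (SE), 95% interval -4.68 to 0.79, limma adjusted p = 0.874; edgeR adjusted p = 0.595). Beside it, 20 skeletal muscle markers summed to 4168, 22847, 1239, 10024 and 9514 in KO1 to KO5, against 31328, 210698, 1231, 15817 and 58426 in WT1 to WT5, in normalized counts. Their sum too was highest in WT2 and lowest in KO3 and WT3, where Myh7, Pvalb and Tnnc2 were at 0 in both. All 20 had fitted differences below 0, with a median log2 difference of -1.86. At an unadjusted limma p under 0.05 there were 0 of 20, against 3.67% of all genes lower in KO. At an unadjusted p under 0.05, edgeR and DESeq2 each had 17 of 20 lower in KO and 0 called. The shares of all genes lower in KO at that threshold were 4.71% in edgeR and 4.96% in DESeq2. The correlation of the log2 level of Cox6a2 with the mean log2 level of these 20 markers over the 10 libraries was 0.986, and the part of muscle RNA in its difference was not tested.

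Cox8b is the muscle form of subunit 8. Cox8b had 11.2, 11.3, 7.03, 31.7 and 5.24 normalized counts in KO1 to KO5, against 31.6, 258, 1.94, 13.8 and 26.6 in WT1 to WT5. It was again highest in WT2 and lowest in WT3, with a log2 difference of -1.07 ± 0.92 (SE) (limma adjusted p = 0.913). On the recovered reads it was -2.30 in edgeR and -2.32 in DESeq2 (adjusted p = 0.62 and 0.502). Cox7a1, the muscle form of subunit 7a, was at 122 normalized counts in WT2, against 9.79 to 17.4 in KO and 4.16 to 17.7 in the other WT libraries. Its log2 difference was -0.45 in limma, -1.38 in edgeR and -1.40 in DESeq2, with no call. Brown fat also uses Cox7a1 and Cox8b. Of 5 brown fat markers 1, Dio2, is among the genes tested. Its deviation from the 10-library mean, in log2, was -0.22 in WT2 and highest in WT3 (0.83) and WT4 (0.81). The 10 adipocyte markers summed to 1017 to 6659.7 normalized counts in KO and 1490.5 to 10726 in WT, with the highest sum in WT2. Without WT2 the log2 differences were -0.99 for Cox6a2, -0.23 for Cox8b and 0.23 for Cox7a1, none of them called. The median of complex IV was 0.19 over the 12 members other than these 3, against -0.093 over all 15.

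The balance of the isoforms differed widely between libraries of the same group. Per kb, the ratio of Cox6a1, the ubiquitous form, to Cox6a2 was 26.4, 4.04, 238, 10.1 and 21.3 in KO1 to KO5, against 3.84, 0.833, 92.3, 16.5 and 2.08 in WT1 to WT5. WT2 was the single library in which the muscle form was the higher. Cox8a over Cox8b and Cox7a2 over Cox7a1 were above 5 in every library, with minima of 5.59 and 12.1, both in WT2. Among the forms that respond to low oxygen, Cox4i2 averaged 31.7 ± 15.0 normalized counts in KO tumours and 25.7 ± 4.05 in WT tumours (n = 5 each, SD; log2 difference 0.20), and its partner Cox4i1 was 26.1 to 65.8 times higher per kb across libraries (log2 difference -0.18). Ndufa4l2 averaged 50.7 ± 23.6 in KO and 54.9 ± 25.8 in WT (log2 difference -0.034).

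**Figure D4:**
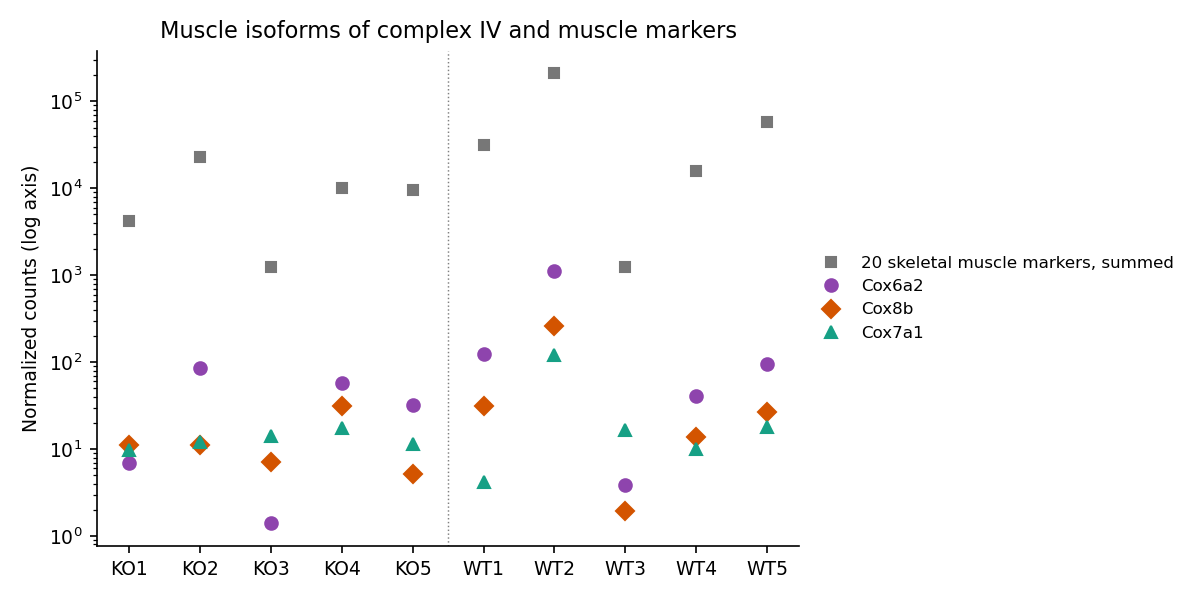
Normalized counts (log axis) of the muscle isoforms Cox6a2, Cox8b and Cox7a1 and the sum of 20 skeletal muscle markers in each library, KO left of the dotted line and WT right of it. WT2 is highest for all 4, and KO3 and WT3 are lowest for the marker sum and Cox6a2.

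In complex V, ATP synthase, 10 of 17 fitted differences were above 0 and 7 below, with a median log2 difference of 0.033. Atp5b, the catalytic beta subunit, had the highest mean per kb of all nuclear-encoded members, 3358 normalized counts per kb. Atp5b had 4379, 5239.7, 3915, 7242 and 8347 normalized counts in KO1 to KO5, against 6717, 10256, 4583, 8099 and 5568 in WT1 to WT5. The groups overlapped (log2 difference -0.28 ± 0.27 (SE)), as they did for the alpha subunit Atp5a1 (log2 difference -0.30 ± 0.23 (SE)). Atp5l, subunit g of the membrane part, had the smallest p of the complex, with 689 ± 142 normalized counts in KO tumours and 541 ± 172.1 in WT tumours (n = 5 each, SD; log2 difference 0.37 ± 0.22 (SE), limma adjusted p = 0.86). It also shares 84.8% of its 50-base windows with other annotated genes, so its reads are uncertain. The small subunit Atp5mpl had a log2 difference of 0.44.

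Atp5g1, Atp5g2 and Atp5g3 encode the same mature proteolipid of the c ring. Their log2 differences were -0.21, 0.17 and -0.45, none called. Atp5g3 had 667, 882, 567, 1278 and 1413 normalized counts in KO1 to KO5, against 1144, 2147, 865, 1618 and 832 in WT1 to WT5. Per kb of the longest coding transcript Atp5g3 was the highest of the 3 at 1578 normalized counts per kb, before Atp5g2 at 819.7 and Atp5g1 at 147, an order that depends on the transcript length taken for each gene.

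The nuclear-encoded members varied together from library to library by more than the groups differed. The median deviation of the 90 genes from their 10-library means, in log2, was -0.53, -0.0029, -0.40, 0.38 and 0.58 in KO1 to KO5, against 0.012, 0.82, -0.42, -0.14 and -0.27 in WT1 to WT5. WT2, KO5 and KO4 were high and KO1, WT3 and KO3 low, so high and low libraries occurred in both groups. Of the 90 genes, 4, 45, 4, 87 and 85 were above their own mean in KO1 to KO5, against 48, 90, 4, 32 and 12 in WT1 to WT5. In each of the 5 complexes WT2, KO5 and KO4 were the 3 highest libraries and KO1, WT3 and KO3 the 3 lowest, with medians in WT2 from 0.74 to 0.95 and in KO1 from -0.63 to -0.39. The median SD within groups was 0.547 log2 units for the nuclear-encoded members, 0.447 for the mitochondrial mRNAs and 0.44 over all genes tested.

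**Figure D5:**
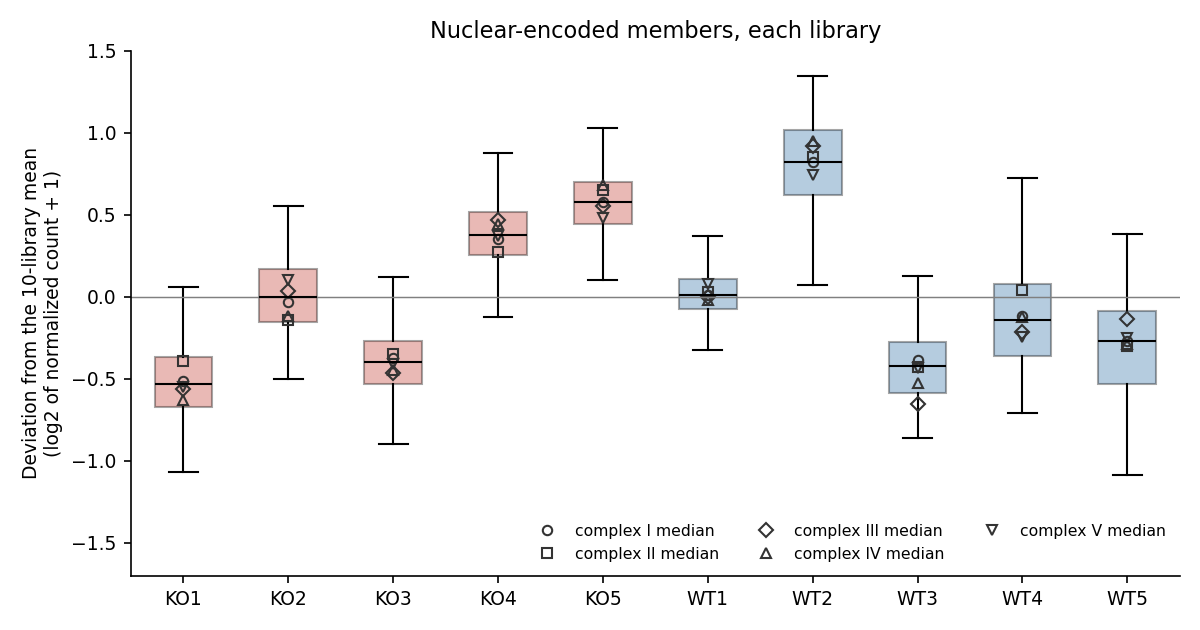
Deviation of the 90 nuclear-encoded members from their own 10-library mean (log2 of normalized count + 1) in each library. Boxes show the median and quartiles over genes, whiskers reach to 1.5 times the box height, and symbols are the medians of complexes I to V. WT2 is highest and KO1 lowest, and the 5 complexes lie close together within each library.

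Members differed in how closely they followed this pattern. The correlation of a member's log2 level with the mean of the other nuclear-encoded members over the 10 libraries had a median of 0.904, and 69 of 90 were above 0.8. Ndufb9 followed it most closely (0.991). The lowest values belonged to Atp5s (0.294), Sdha (0.328), Ndufs1 (0.396) and Ndufb2 (0.458), of which Atp5s, Ndufs1, Ndufb2 and Ndufb9 are named here after their values were seen. Of 17872 tested genes outside the set, 1711 correlated above 0.8 with the mean of the nuclear-encoded subunits (median -0.020). These correlations share libraries and scaling and describe this data set.

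The library pattern was set beside transcript length, GC content and muscle RNA. Across 13861 coding genes, the correlation of a gene's log2 deviation in a library with its log2 transcript length was 0.38, 0.0061, 0.13, -0.27 and -0.35 in KO1 to KO5, against 0.045, -0.34, 0.081, 0.16 and 0.32 in WT1 to WT5. KO4, KO5 and WT2, where the members were high, had the negative correlations. The same correlation with GC content did not follow the pattern: it was -0.25, -0.027, 0.14, -0.10 and -0.068 in KO1 to KO5, against -0.12, 0.10, 0.069, 0.52 and -0.41 in WT1 to WT5, with the extremes in WT4 and WT5. The longest coding transcript of the nuclear-encoded members has a median of 913 bases, against 3128 over all coding genes tested. After splines of length and GC content over all genes were removed from each library, the pattern was nearly as large, with median deviations of -0.45 in KO1, 0.55 in KO5, 0.71 in WT2 and -0.51 in WT3. After splines of coding length and GC content over coding genes alone, a correction chosen after seeing the data, the median deviation of the members was -0.11, 0.03, -0.19, 0.17 and 0.28 in KO1 to KO5, against 0.026, 0.23, -0.28, -0.0059 and -0.10 in WT1 to WT5. That spread was smaller than before, and KO5, WT2 and KO4 were the 3 highest under both corrections. The mean of the nuclear-encoded subunits also correlated with the mean log2 level of the 20 muscle markers (0.749 over 10 libraries), and with that muscle score as a covariate the median log2 difference of the 90 genes was 0.27, with 0 members called, against 0.456% of all genes in that fit, and the lowest adjusted p at 0.0779 (Uqcrh). In it 20 of the 103 members were above 0 at an unadjusted p under 0.05, against 5.76% of all genes. Most members moved together across libraries, so these 20 are not separate observations. The median log2 deviation of the 20 muscle markers was -2.26, 1.29, -4.43, 0.16 and 0.040 in KO1 to KO5, against 1.57, 4.65, -4.36, 0.46 and 1.99 in WT1 to WT5. WT2 was thus highest in both, while KO5 and KO4, where the members were high, were below WT5 and WT1 in muscle markers. The parts of length, GC content and muscle RNA in the pattern were not tested.

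The 5 genes outside the set with the closest library pattern were Atox1, Smim8, Dctpp1, Mrpl12 and Mrpl42. Their correlation with the mean of the nuclear-encoded subunits over 10 libraries was 0.99, 0.987, 0.987, 0.985 and 0.985 in that order. Atox1 encodes a copper chaperone, and Mrpl12 and Mrpl42 encode proteins of the mitochondrial ribosome. Their log2 differences were -0.049, -0.065, -0.048, -0.11 and -0.055.

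Promoters of nuclear respiratory genes are known for binding NRF1, GABP of the ETS family, YY1 and the ERR receptors, and their letters were looked up in the members. RefSeq promoters (GRCm38.p6, 250 bases before to 50 after the start) were matched for 74 of the 90 nuclear-encoded members by symbol or synonym. On either strand, the NRF1 letters GCGCATG were in 15 of the 74 (20.3%), against 5.4% of all 17492 genes with a protein-coding promoter. The ETS letters CCGGAAG were in 18 (24.3%, against 12.9%), the YY1 letters AAGATGG in 12 (16.2%, against 7.18%) and the ERR letters TGACCTT in 8 (10.8%, against 4.73%). The ETS and YY1 letters can share the bases AAG where they meet. Of the 74 members, 40 held at least 1 of the 4 motifs, and the share of all promoters that do so was not counted. Below, 60 bases are shown for 3 members named above, 5′ to 3′ along the gene, with the NRF1 letters in capitals.
Atp5g2: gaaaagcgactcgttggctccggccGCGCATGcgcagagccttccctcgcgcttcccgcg
Cox6a1: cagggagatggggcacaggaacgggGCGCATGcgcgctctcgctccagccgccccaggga
Ndufaf4: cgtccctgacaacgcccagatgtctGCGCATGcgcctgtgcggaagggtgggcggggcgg
They lie at chr15:102671055-102671114 (minus strand), chr5:115349086-115349145 (minus strand) and chr4:24897945-24898004 (plus strand). In all 3 the bases after the capitals extend the match to its palindrome. A match describes the sequence and was not compared with the levels. All promoters were taken without matching them to the members for GC content.

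The rest of the pathway was read from 10 lists, and 0 of their genes was called by limma, edgeR or DESeq2. Of all genes, limma and edgeR each called 0.00556% and DESeq2 0.673%, so few calls are the background. Assembly factors of complex I without an Nduf name had 6 of 9 above 0 and 3 below (median log2 difference 0.015), those of complexes II and III 3 of 10 above 0 and 7 below (median log2 difference -0.052), those of complex IV 9 of 20 above 0 and 11 below (median log2 difference -0.045) and those of complex V 1 of 3 above 0 and 2 below (median log2 difference -0.14). Cox10, which makes heme O for complex IV, had 134 ± 14.2 normalized counts in KO tumours and 189 ± 40.4 in WT tumours (n = 5 each, SD; log2 difference -0.48 ± 0.19 (SE), unadjusted p = 0.025, limma adjusted p = 0.707). Its KO and WT libraries overlapped. Cox15, the next enzyme of heme A synthesis, had -0.40, and Cox16, needed for subunit 2 of complex IV, had 0.46. Nubpl, which brings iron-sulfur clusters to complex I, had 0.35, and Bcs1l, which puts the Rieske protein into complex III, had -0.21.

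Mitochondrial transcription and DNA maintenance genes had 10 of 20 above 0 and 10 below (median log2 difference 0.0094). Ssbp1 had 548, 593, 623, 572 and 575 normalized counts in KO1 to KO5, against 507, 479.9, 395, 320.0 and 501 in WT1 to WT5. Ssbp1 binds single-stranded mitochondrial DNA, and its KO libraries were all above its WT libraries (log2 difference 0.42 ± 0.16 (SE), limma adjusted p = 0.707). It was the 1 gene without overlap among 192 tested genes of the 10 lists, against 1.42% of all genes (0.684% higher in KO), which is not above the background. The regulators of nuclear respiratory genes had 3 of 11 above 0 and 8 below (median log2 difference -0.066), with Gabpb2 at -0.32 ± 0.15 (SE).

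The tricarboxylic acid cycle had 6 of 18 above 0 and 12 below (median log2 difference -0.20). Cs, citrate synthase, had 1493 ± 143 normalized counts in KO tumours and 2012 ± 536 in WT tumours (n = 5 each, SD; log2 difference -0.40 ± 0.19 (SE), limma adjusted p = 0.779). Ogdh, of 2-oxoglutarate dehydrogenase, and Mdh2, malate dehydrogenase, had -0.46 and -0.36. The carriers of adenine nucleotides and phosphate had 1 of 6 above 0 and 5 below (median log2 difference -0.29), with the outer membrane channel Vdac1 at -0.41 ± 0.22 (SE), the phosphate carrier Slc25a3 at -0.34 and the muscle and heart nucleotide carrier Slc25a4 at -0.45. Mobile carriers and electron entry genes had 8 of 17 above 0 and 9 below (median log2 difference -0.034). Coq8a, needed to make ubiquinone, had the widest difference there at -1.24 ± 0.62 (SE), with 50.3, 144, 43.6, 73.6 and 70.7 normalized counts in KO1 to KO5, against 217, 851, 43.7, 101 and 152 in WT1 to WT5, and its highest value was in WT2, as for the muscle markers. The mitochondrial ribosomal proteins had 36 of 78 above 0 and 42 below (median log2 difference -0.028), and their median deviation by library was -0.46, -0.0081, -0.33, 0.28 and 0.56 in KO1 to KO5, against 0.038, 0.68, -0.38, -0.0059 and -0.25 in WT1 to WT5. As in the members, WT2, KO5 and KO4 were the 3 highest libraries and KO1, WT3 and KO3 the 3 lowest.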

How the data were processed

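Total RNA from frozen sections of 4T1 tumours was, per the labels' protocols, depleted of ribosomal RNA and sequenced. A normalized signal per gene and library, that is read counts divided by 1 size factor per library, is what the authors deposited. All values were whole multiples of 1 read, so reads could be recovered. Per the submitters' processing notes, bcl2fastq 2.17 and the genome build GRCm38 were used. The aligner, counter, use of strand and use of molecular identifiers are not given in the sources used here. Summed over the listed genes, the recovered reads are 8609756 to 19934428 per library. Reads outside those genes are not in these sums.

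The comparison of KO with WT used limma 3.58.1 under R 4.3.3 with its trend option, on log2(normalized count + 1) over 17975 genes with a mean of at least 10 (72 were below), with Benjamini-Hochberg adjustment at 0.05. Differences on this scale understate the change of low genes. Alternatives on the recovered reads were edgeR 4.0.16 and DESeq2 1.42.0. The other alternatives varied the pseudocount, filter, scaling, covariates, replicate block, GC and length correction, and libraries. The code was tested on simulated data.

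The members and lists were chosen with earlier results of these data known. Named are every mitochondrial member, 4 members of each complex and 4 Ndufaf genes with the smallest p, the member of each complex highest per kb, tissue isoforms, up to 3 genes of each pathway list and the 5 most similar other genes. Some genes of the lists that the rule names are given by their list's counts only. The NRF1 and YY1 letters were shortened after a look-up with longer ones. Levels per kb use the longest coding transcript. Of the 90 nuclear-encoded members, 14 share at least 25% of their 50-base windows with other annotated genes. A check of the genotype labels is not reported here.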

Additional observations from a re-analysis of the deposited data

Results flagged for a closer look

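Single libraries of 13 groups of values, out of 104 tested (KO and WT separately for each of the named members and 2 summary measures), lay apart from the other 4 of their group by Dixon's criterion. Chance flags about 1 in 20 groups where values are normal and groups independent. These groups share libraries and many members moved together, so the count of flags cannot be set against that rate.

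Of the 13, 9 concerned WT2. It was apart from the other WT libraries, in normalized counts, for the muscle isoforms Cox6a2 (1108), Cox8b (258) and Cox7a1 (122), and for the ubiquitous subunit Cox7a2 (1999.9) and its relative Cox7a2l (2474). It was also apart for Ndufa7 of complex I (1256), the iron-sulfur subunit Sdhb (2258), Uqcr10 of complex III (1150.2) and the assembly factor Ndufaf6 (155). WT2 also had the highest sum of skeletal muscle markers, whose part in these values was not tested.

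KO5 was apart from the other KO libraries for Ndufv1, the NADH-binding subunit (579 normalized counts), Ndufa4l2 (91.7) and the assembly factor Ndufaf3 (205). KO5 is the single KO library with the RESUB prefix, and the 2 cannot be told apart.

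KO4 was apart from the other KO libraries for Cox8b, at 31.7 normalized counts.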

How the results depend on the processing

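No alternative called a member: the count stayed at 0 of 103 in 26 of the 28, at 0 of the 99 members with a mean of at least 50, and at 0 of the 90 nuclear-encoded members in the correction for coding GC content and length, which was chosen after seeing the data. The lowest adjusted p was 0.0779, for Uqcrh with the muscle score as a covariate. Within the libraries with the RESUB prefix, where KO5 is the sole KO library and is assumed to vary like the WT libraries, the median log2 difference was 0.54 over the nuclear-encoded members, 0.55 over complex I, 0.44 over complex II and 0.55 over complex IV. Within the libraries without it, where WT5 is the sole WT library, the median of the mitochondrial mRNAs was -0.18. The cause was not tested.

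With 1 library left out, the median log2 difference ran from -0.11 (without KO5) to 0.24 (without WT2) over the nuclear-encoded members and from 0.022 (without WT3) to 0.25 (without WT2) over the mitochondrial mRNAs. It ran from -0.10 to 0.22 for complex I, -0.21 to 0.11 for complex II, -0.11 to 0.33 for complex III, -0.27 to 0.23 for complex IV and -0.10 to 0.23 for complex V. The difference in mitochondrial read share, 0.345 percentage points, ran from 0.0807 (without WT4) to 0.652 (without WT2). Replicate numbers did not pair the libraries: the correlation of same-numbered deviations ran from -0.23 to 0.52, and 1 of 5 numbers correlated best with its own. With the replicate block 0 members were called and the nuclear-encoded median was 0.023. Of 50 named members, 31 changed sign in some alternative.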
